A study of Homo sapiens with 6 samples.

Results

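Long intergenic non-protein-coding RNAs, given LINC symbols by gene nomenclature until a function or a neighbour supplies another name, were examined in pancreatic cancer cell lines that carried an epithelial splicing regulator. A gene was taken when its symbol was LINC followed by a digit and when it reached at least 2 TPM (a transcript level scaled for transcript length and library size) in 1 or more of 6 libraries. By this rule 183 of 1255 LINC symbols, or 14.6%, were taken, out of 27408 gene symbols in all, and 448 LINC symbols were listed at 0 in every library. The genes were thus selected on their TPM in these same libraries, so the levels are given as a description. Just inside the threshold lay LINC00638, LINC00853 and LINC01444, whose highest library had 2.00, 2.02 and 2.03 TPM, and just outside lay LINC01474, LINC02186 and LINC00266-1 with 1.99, 1.98 and 1.98 TPM.

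The cells were PANC-1 and MIA-PaCa2, established human pancreatic cancer lines grown in DMEM with 10% fetal bovine serum. Each line was made to overexpress ESRP1 or ESRP2, related RNA-binding proteins that epithelial cells use to control alternative splicing, or carried the control construct called LPCX in the labels. The groups were thus PANC-1 ESRP1, PANC-1 ESRP2, PANC-1 LPCX, MIA-PaCa2 ESRP1, MIA-PaCa2 ESRP2 and MIA-PaCa2 LPCX, with 1 library each, and the stated question was what the 2 proteins do in the progression of this cancer. A comparison within a line therefore has no replicates, while the comparison between the lines rests on 3 libraries a line, 1 for each construct. Whether a construct line is 1 clone or a pool of cells is not given in the sources used here.

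Long noncoding RNAs are mostly transcribed by RNA polymerase II, spliced and polyadenylated like messenger RNAs, but are as a class less abundant and more restricted to particular cell types. Some act on transcription of a neighbouring gene from the site where they are made, some bind proteins or microRNAs elsewhere in the cell, and some loci first named as noncoding were later found to encode small proteins. Many have no known role. Libraries made with an mRNA kit see those that carry a poly(A) tail.

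The introduced genes followed the labels. In the ESRP1 libraries, ESRP1 itself had 491 TPM (PANC-1) and 367 TPM (MIA-PaCa2), and at most 0.261 TPM in the other 4 libraries. ESRP2 was at 308 TPM in PANC-1 ESRP2 and 197 TPM in MIA-PaCa2 ESRP2, with 37.7 and 34.8 TPM in PANC-1 ESRP1 and PANC-1 LPCX and at most 0.106 TPM in the other MIA-PaCa2 libraries. Of 10 ductal epithelial markers 8 reached 2 TPM, KRT8 and KRT19 above 200 TPM throughout. EPCAM had 24.3 to 28.2 TPM in PANC-1 and was listed at 0 in MIA-PaCa2. CDH1 had 3.89 to 8.59 TPM in PANC-1 and at most 0.173 TPM in MIA-PaCa2. Of 5 mesenchymal markers 3 reached 2 TPM. VIM had 4142.5 to 5620.3 TPM and ZEB1 had 19.2 to 24.2 TPM across all libraries. CDH2 had 32.4 to 51.8 TPM in PANC-1 and at most 0.0212 TPM in MIA-PaCa2. FN1 and SNAI2 stayed at or under 0.734 TPM. Of 7 acinar and islet markers none reached 2 TPM, and INS, GCG, SST and AMY2A were listed at 0 throughout. Of 6 leukocyte markers 2 reached 2 TPM, with sums of 296 to 365 TPM in PANC-1, nearly all CD68, and 27.5 to 34.7 TPM in MIA-PaCa2, while PTPRC stayed at or under 0.563 TPM. Of 7 fibroblast and endothelial markers 2 reached 2 TPM, with sums of 66.9 to 108 TPM in PANC-1, nearly all COL1A1, and 1.88 to 4.07 TPM in MIA-PaCa2, while DCN was at most 0.0393 TPM. Of 4 neuronal markers only SYT1 reached 2 TPM. The part of these marker differences in the differences between the lines reported here was not tested. The number of reads behind the TPM is unknown.

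The LINC RNAs were for the most part sparse. Their median highest level was 5.00 TPM, 92 of the 183 reached 5 TPM in some library, 50 reached 10 TPM, 17 reached 20 TPM, 3 reached 50 TPM and 1 reached 100 TPM. In a single library 100 to 132 of them had at least 2 TPM, 62 had it in all 6 libraries and 31 in exactly 1. Their summed level was 984, 954 and 1075 TPM in PANC-1 with ESRP1, ESRP2 and LPCX, and 1333, 1528 and 1379 TPM in MIA-PaCa2. Much of the gap between the lines was 1 gene: without LINC01933 the sums in MIA-PaCa2 were 1049, 1131 and 1073 TPM.

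The most abundant of the 183 was LINC01933 (chromosome 5, 151958898 to 152270449, GRCh38), a noncoding locus with no role known here. LINC00493 followed with 64.8, 65.0 and 76.9 TPM in PANC-1 with ESRP1, ESRP2 and LPCX, against 86.4, 89.7 and 95.1 TPM in MIA-PaCa2. LINC01296, now DUXAP9, a transcribed pseudogene of the double homeobox family, had 65.5, 54.2 and 71.9 TPM in PANC-1, against 72.2, 83.7 and 72.9 TPM in MIA-PaCa2. LINC00493 was higher in all MIA-PaCa2 libraries, and LINC01296 also showed no overlap, by the narrow margin between 71.9 and 72.2 TPM. DUXAP9 has close copies, among which reads could be split, so its level is uncertain. Then came LINC01123, LINC00998, LINC00673, LINC02001, LINC02043, LINC00106, LINC00339, LINC01873 and LINC00888, with means over the 6 libraries between 17.5 and 29.4 TPM.

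Several of the abundant genes are no longer classed as noncoding. In current RefSeq 174 of the 183 are long noncoding RNAs, 8 are protein-coding and 1 is the pseudogene DUXAP9. LINC00493 is SMIM26 and LINC00116 is MTLN, both loci of small mitochondrial proteins, and LINC00998 is SMIM30, a small membrane protein. LINC00116 had 7.26, 9.17 and 12.2 TPM in PANC-1 and 8.19, 7.54 and 9.36 TPM in MIA-PaCa2. LINC00998 had 22.2, 22.5 and 26.4 TPM in PANC-1 and 24.6, 26.2 and 26.6 TPM in MIA-PaCa2. Both overlapped between the lines. Symbols have changed for 32 of the 183 in all, 8 of them to a divergent transcript name ending in -DT.

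The next question was how the LINC RNAs differed between the lines. The libraries of the lines did not overlap for 130 of the 183 (71.0%), while the same held for 76.2% of the 14284 genes with at least 2 TPM in some library. Of the 130, 56 were higher in PANC-1 and 74 were higher in MIA-PaCa2, against 41.2% and 35% of all genes. Limma, fitted to log2 of TPM plus 1 over all 14284 genes with the construct as a term, called 118 of the 183 (64.5%) at an adjusted p under 0.05, 55 higher and 63 lower in PANC-1. The background was 74.4% of all genes, 40.6% higher and 33.8% lower. An unadjusted p under 0.05 was reached by 124 LINC RNAs and by 76.5% of all genes. Their median absolute difference was 0.77 on the log2 scale, against 0.64 for all genes tested. Called differences of 4-fold or more were seen for 9 LINC RNAs higher in PANC-1 and 14 higher in MIA-PaCa2, or 12.6%, against 10.8% of all genes. Because 1 line often supplied the level that admitted a gene, these shares partly follow from the choice: 38 LINC RNAs reached 2 TPM in PANC-1 only and 54 in MIA-PaCa2 only. Of the 91 that reached 2 TPM in both lines, 25 were called higher in PANC-1, 25 were called higher in MIA-PaCa2 and 41 were not called. In these bulk libraries fewer cells with an RNA and less RNA per cell cannot be told apart.

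**Figure D1:**
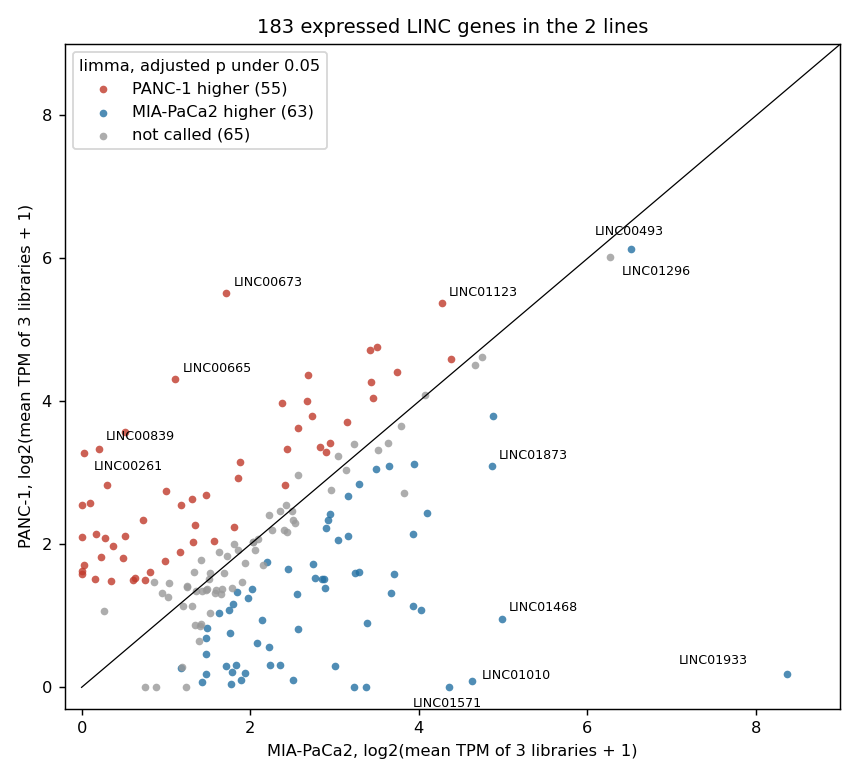
Mean level of the 183 LINC RNAs in PANC-1 (vertical axis) and MIA-PaCa2 (horizontal axis), as log2 of the mean TPM of 3 libraries plus 1; each point is a gene, coloured by the limma call, and the line marks equal levels. The 55 genes called higher in PANC-1 lie above the line and the 63 called higher in MIA-PaCa2 below it, with LINC01933 far to the right.

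Among the LINC RNAs higher in PANC-1, LINC00673, a noncoding RNA studied as a pancreatic cancer susceptibility gene, had the largest difference on the scale of log2 of TPM plus 1, which understates the change of low genes. It had 43.9, 40.9 and 49.6 TPM in PANC-1 with ESRP1, ESRP2 and LPCX, against 2.49, 2.60 and 1.78 TPM in MIA-PaCa2. The 3 PANC-1 libraries stood far above all MIA-PaCa2 libraries, a log2 difference of 3.80 (SE 0.14, n = 3 libraries a line, limma adjusted p = 1.91e-05). LINC00261, a noncoding RNA beside the gene of the endoderm transcription factor FOXA2, had 9.17, 8.05 and 8.76 TPM in PANC-1, against 0.0497, 0.0179 and 0 TPM in MIA-PaCa2. LINC00261 was thus near 0 in MIA-PaCa2 with every construct (log2 difference 3.24, SE 0.14, limma adjusted p = 2.99e-05). LINC00665 had 19.7, 17.3 and 19.6 TPM in PANC-1, against 1.14, 1.55 and 0.783 TPM in MIA-PaCa2. LINC00839, LINC01138, LINC01002, LINC00397, LINC00623, LINC01167 and LINC01783 completed the 10 largest differences in this direction, with means of 3.28 to 10.9 TPM in PANC-1 and at most 0.424 TPM in MIA-PaCa2. LINC00397 and LINC01167 were listed at 0 in all 3 MIA-PaCa2 libraries, as was LINC00112. LINC00623 and LINC01138, like LINC00869, lie in duplicated stretches of chromosome 1, and reads could be split between copies.

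Among those lower in PANC-1, LINC01933 stood apart from every other LINC RNA. It was listed at 0, 0 and 0.402 TPM in PANC-1 with ESRP1, ESRP2 and LPCX, against 284, 397 and 306 TPM in MIA-PaCa2. The log2 difference of TPM plus 1 was -8.19 (SE 0.17, n = 3 libraries a line, limma adjusted p = 5.18e-06). LINC01010 had 0.190, 0 and 0 TPM in PANC-1, against 24.1, 24.3 and 23.2 TPM in MIA-PaCa2 (log2 difference -4.55, SE 0.11, limma adjusted p = 7.49e-06). LINC01571 was listed at 0 in all PANC-1 libraries, against 22.9, 17.9 and 17.8 TPM in MIA-PaCa2. LINC01468, now LNCAROD, was at 0.615, 0 and 2.23 TPM in PANC-1, against 33.1, 27.2 and 31.5 TPM in MIA-PaCa2. Each of these 4 RNAs was high in all MIA-PaCa2 libraries and at or under 2.23 TPM in all PANC-1 libraries. LINC02101 and LINC00457 were likewise listed at 0 in all of PANC-1, with 7.94 to 10.4 TPM and 3.28 to 11.8 TPM in MIA-PaCa2. LINC00525, LINC01599, LINC01204 and LINC01023 had PANC-1 means of 0.229 to 1.20 TPM and MIA-PaCa2 means of 7.03 to 15.3 TPM. LINC00448, LINC01399 and LINC02211 were the other LINC RNAs listed at 0 throughout PANC-1, but they were also near or at 0 in most MIA-PaCa2 libraries. In MIA-PaCa2 with ESRP1, ESRP2 and LPCX, LINC00448 had 0, 4.06 and 0 TPM. In the same order LINC01399 had 0.191, 0 and 2.34 TPM, and LINC02211 had 0, 0 and 2.07 TPM. LINC00448, LINC01399 and LINC02211 were not called between the lines.

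**Figure D2:**
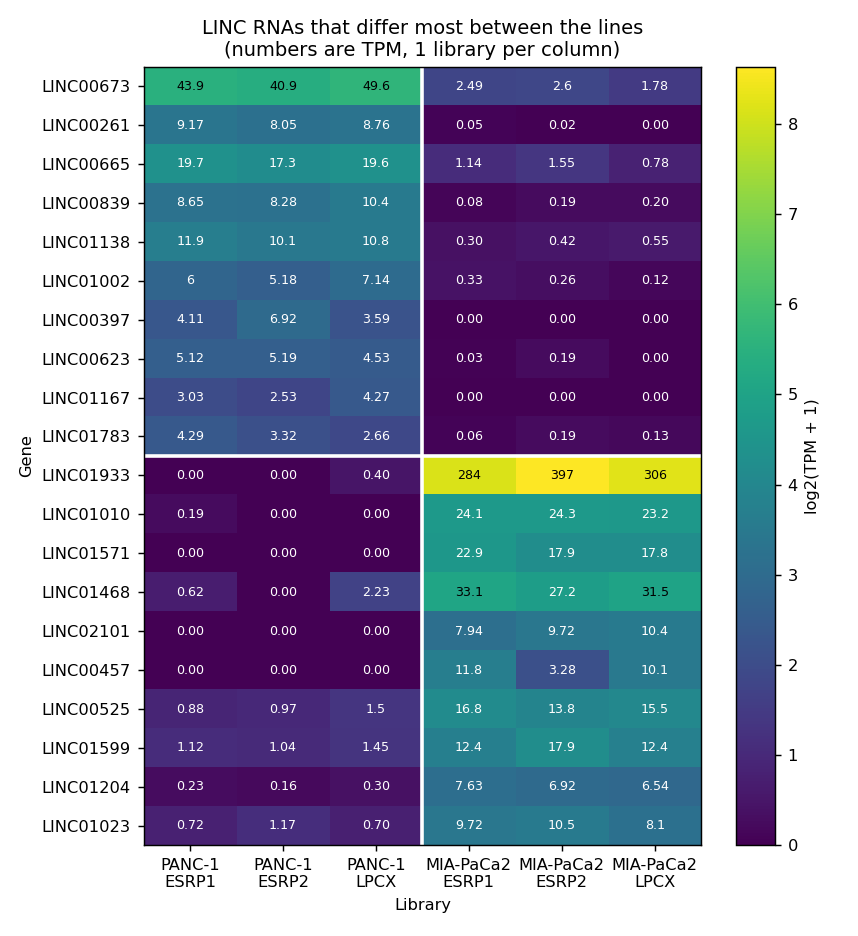
Levels of the 10 LINC RNAs with the largest called differences in each direction (rows) in the 6 libraries (columns); colour is log2 of TPM plus 1 and the printed number is TPM. The upper 10 rows are bright in the 3 PANC-1 columns and dark in MIA-PaCa2, and the lower 10 rows show the reverse.

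Other LINC RNAs with a known role in cancer or gene control differed less. LINC00857 had 19.7, 22.8 and 16.7 TPM in PANC-1, against 6.08, 4.61 and 5.59 TPM in MIA-PaCa2, and was higher in PANC-1 by 1.68 on the log2 scale (SE 0.14, limma adjusted p = 0.000265). LINC00662 and LINC00963 were also higher in PANC-1, with log2 differences of 1.60 and 1.07. LINC01578, now CHASERR, which restrains the chromatin remodeller gene CHD2 beside it, had 19.3, 20.2 and 21.0 TPM in PANC-1, against 13.2, 11.3 and 12.7 TPM in MIA-PaCa2. Its libraries did not overlap (log2 difference 0.67, SE 0.08, limma adjusted p = 0.000899). LINC00467 was lower in PANC-1 by a log2 difference of -1.65. LINC00941 overlapped between the lines, with 13.9, 15.4 and 18.7 TPM in PANC-1 and 16.6, 15.4 and 15.7 TPM in MIA-PaCa2 (log2 difference 0.00, SE 0.11, limma adjusted p = 0.989).

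Of the 8 genes now classed as protein-coding, 5 were called lower in PANC-1 and 3 were not called, where 33.8% of all genes tested were called lower. LINC00493, the SMIM26 locus, differed by -0.39 on the log2 scale (SE 0.06, limma adjusted p = 0.00233), and LINC00094, now BRD3OS, by -0.82 (SE 0.08, limma adjusted p = 0.000383). LINC00371, LINC00176 and LINC01125 were the other 3, with highest levels of 3.96, 2.99 and 2.29 TPM. LINC00998 (-0.12), LINC00116 (0.15) and LINC00483 (0.28) were not called.

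The starts of 5 LINC genes among the 20 with the largest called differences are shown, because they differ widely in base composition. They were picked after their values were seen, and LINC01933 had no window in the table used. Each is the RefSeq window on GRCh38.p14 from 250 bases before to 50 after the start, 5′ to 3′ on the gene's strand, with CpG dinucleotides in capitals. The windows are chr17:72592755-72593054 on the minus strand for LINC00673, chr20:22578593-22578892 on the minus strand for LINC00261, chr6:134437466-134437765 on the plus strand for LINC01010, chr16:51762269-51762568 on the plus strand for LINC01571 and chr5:58122292-58122591 on the minus strand for LINC02101.
LINC00673: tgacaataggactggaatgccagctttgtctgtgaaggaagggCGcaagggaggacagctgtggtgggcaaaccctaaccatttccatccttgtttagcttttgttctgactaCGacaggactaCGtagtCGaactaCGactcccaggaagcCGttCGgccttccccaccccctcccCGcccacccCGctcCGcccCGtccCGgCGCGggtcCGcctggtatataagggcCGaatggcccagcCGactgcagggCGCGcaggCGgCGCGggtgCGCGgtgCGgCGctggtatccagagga
LINC00261: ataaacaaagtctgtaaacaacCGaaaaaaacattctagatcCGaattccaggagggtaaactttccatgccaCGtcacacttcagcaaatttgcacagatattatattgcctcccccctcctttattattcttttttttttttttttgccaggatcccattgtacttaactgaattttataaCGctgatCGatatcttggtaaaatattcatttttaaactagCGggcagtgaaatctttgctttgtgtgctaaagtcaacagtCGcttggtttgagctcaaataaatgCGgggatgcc
LINC01010: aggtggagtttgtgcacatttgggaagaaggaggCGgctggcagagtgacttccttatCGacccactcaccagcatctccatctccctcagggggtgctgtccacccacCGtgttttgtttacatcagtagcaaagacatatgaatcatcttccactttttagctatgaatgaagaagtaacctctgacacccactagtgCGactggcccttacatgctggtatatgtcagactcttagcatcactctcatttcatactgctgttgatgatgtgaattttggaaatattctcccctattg
LINC01571: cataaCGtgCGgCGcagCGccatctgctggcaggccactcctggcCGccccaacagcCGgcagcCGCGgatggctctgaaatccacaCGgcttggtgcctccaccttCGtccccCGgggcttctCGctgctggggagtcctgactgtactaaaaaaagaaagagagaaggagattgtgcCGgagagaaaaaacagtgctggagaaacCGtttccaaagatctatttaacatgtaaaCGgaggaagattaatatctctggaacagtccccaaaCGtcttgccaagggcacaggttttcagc
LINC02101: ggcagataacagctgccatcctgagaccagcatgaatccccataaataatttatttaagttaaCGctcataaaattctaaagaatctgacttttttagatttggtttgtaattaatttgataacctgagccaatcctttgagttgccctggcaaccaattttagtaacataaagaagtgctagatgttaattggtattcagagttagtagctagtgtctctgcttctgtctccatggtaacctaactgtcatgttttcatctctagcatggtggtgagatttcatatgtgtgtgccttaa
LINC00673 holds 26 CpG in its 300 bases and 63.3% G and C, LINC01571 holds 16, LINC00261 holds 8 in a window of 37.0% G and C, LINC01010 holds 4 and LINC02101 holds 1.

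Promoter windows were found for 130 of the 183 LINC genes. CpG dinucleotides are depleted in most of the genome and kept in CpG islands, where many broadly used promoters lie. A ratio of observed to expected CpG of at least 0.6 was found in 66 of the 130 windows (50.8%), in 16.5% of 768 other LINC genes of the RefSeq table, in 65.8% of protein-coding genes and in 49.0% of all promoters. Median content of G and C was 59.3% for the 130, against 47.7% for the other LINC genes. By reach, the share at 0.6 or more was 63.8% of 69 LINC genes at 2 TPM in both lines, 40.7% of 27 in PANC-1 only and 32.4% of 34 in MIA-PaCa2 only. The share was highest for LINC genes seen in both lines, near that of protein-coding genes, and lower for those seen in 1 line only. Short motifs were counted in the same windows: TATAAA on the gene's strand in 8.46% (all promoters 7.71%), and on either strand GGGCGG in 46.2% (44.6%), CCAAT in 37.7% (35.7%), TGANTCA in 10.0% (7.76%) and CACGTG in 10.8% (7.43%). Such a match describes letters and does not show a bound site.

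Because some long noncoding RNAs act on the gene beside them, each LINC gene was set beside its nearest protein-coding gene in RefSeq. For 118 of the 183 the neighbour also reached 2 TPM and was tested. Across these pairs the log2 differences between the lines correlated with a Spearman rho of 0.47, against 0.36 for 8797 protein-coding genes and their nearest protein-coding gene; pairs share libraries and genome regions and are not independent. Both genes were called in 57 pairs, in the same direction in 47 (82.5%), against 70.2% of 5413 such pairs of protein-coding genes. The same direction was seen in 9 of 9 overlapping pairs, in 16 of 18 pairs apart by under 10000 bases and in 22 of 30 pairs farther apart. Pairs of protein-coding genes were not split by distance, so these counts have no background of their own. Where genes overlap, reads could be assigned to either, since it is not given whether the counting used strand.

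**Figure D3:**
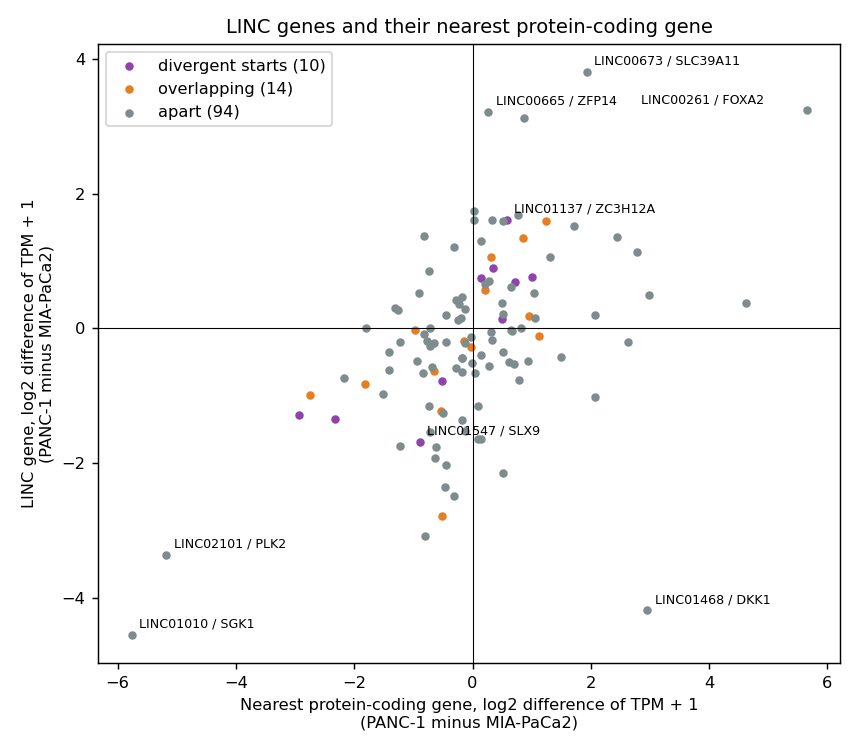
Difference between the lines (PANC-1 minus MIA-PaCa2, log2 of TPM plus 1) of a LINC gene (vertical axis) and of its nearest protein-coding gene (horizontal axis) for 118 pairs, coloured by arrangement. LINC00261 with FOXA2 lies at the upper right, LINC01010 with SGK1 and LINC02101 with PLK2 at the lower left, and LINC01468 with DKK1 at the lower right.

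The pairs with the largest differences can be read library by library. FOXA2, which lies 2356 bases from LINC00261, had 51.1, 52.9 and 44.2 TPM in PANC-1 with ESRP1, ESRP2 and LPCX and was listed at 0 in all MIA-PaCa2 libraries, so both genes of the pair were seen in PANC-1 and near or at 0 in MIA-PaCa2. SGK1, the serum- and glucocorticoid-regulated kinase, lies 119604 bases from LINC01010 and had 6.50, 6.10 and 8.80 TPM in PANC-1, against 436, 439 and 436 TPM in MIA-PaCa2 (log2 difference -5.77, SE 0.11, limma adjusted p = 3.94e-06). PLK2, a polo-like kinase induced by stress, lies 331641 bases from LINC02101 and had 24.0, 21.3 and 23.1 TPM in PANC-1, against 832, 899 and 846 TPM in MIA-PaCa2 (log2 difference -5.18, SE 0.07, limma adjusted p = 2.87e-06). In all 3 pairs the LINC RNA and its neighbour were high in the same line. SLC39A11, a zinc transporter gene next to LINC00673, was also higher in PANC-1, with a log2 difference of 1.93 (SE 0.06, limma adjusted p = 1.47e-05).

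Other pairs went apart. LNCAROD (LINC01468) is named as an activating regulator of DKK1, a secreted inhibitor of Wnt signalling that lies 133220 bases away. DKK1 had 342, 332 and 412 TPM in PANC-1, against 49.5, 42.2 and 45.2 TPM in MIA-PaCa2, while LINC01468 was lower in PANC-1. The log2 differences were 2.96 (SE 0.09, limma adjusted p = 1.11e-05) for DKK1 and -4.18 (SE 0.29, limma adjusted p = 0.000129) for LINC01468. LINC00665 differed by 3.22 (SE 0.15, limma adjusted p = 4.03e-05), whereas its neighbour ZFP14, at 2.09, 1.67 and 1.97 TPM in PANC-1 and 1.22, 1.62 and 1.42 TPM in MIA-PaCa2, was not called (log2 difference 0.27, limma adjusted p = 0.217).

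A bidirectional arrangement, with the 2 starts within 1000 bases and on opposite strands, was found for 10 pairs, and in 8 of them both genes were called, all in the same direction. Pairs of protein-coding genes in this arrangement were not counted. Whether such agreement is particular to LINC genes was therefore not tested. LINC01137, now LITATS1, starts 137 bases from ZC3H12A, an endoribonuclease gene that limits inflammation. ZC3H12A had 6.57, 6.38 and 8.11 TPM in PANC-1, against 4.37, 4.22 and 4.37 TPM in MIA-PaCa2, and the log2 differences were 1.61 for LINC01137 (limma adjusted p = 0.000312) and 0.59 for ZC3H12A (limma adjusted p = 0.00419). The window of LINC01137, chr1:37474394-37474693 on the minus strand of GRCh38.p14, is shown as the shared stretch of such a pair, with CpG in capitals.
LINC01137: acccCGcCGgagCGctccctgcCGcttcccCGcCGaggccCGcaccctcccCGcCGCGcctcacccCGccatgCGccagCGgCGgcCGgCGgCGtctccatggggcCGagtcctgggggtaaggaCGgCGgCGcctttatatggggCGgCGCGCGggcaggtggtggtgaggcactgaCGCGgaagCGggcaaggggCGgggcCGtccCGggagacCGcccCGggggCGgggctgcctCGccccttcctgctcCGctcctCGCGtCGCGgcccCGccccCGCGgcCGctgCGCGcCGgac
It holds 47 CpG and 80.7% G and C. LINC00909 and ZNF407, LINC00893 and EOLA1, and LINC00894 and EOLA2 were other pairs with both genes higher in PANC-1. EOLA1 and EOLA2 are close copies of each other, so reads of these pairs could be split. LINC01547 and SLX9, LINC01351 and BRINP3, and LINC01424 and UBE2G2 were lower in PANC-1 together.

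By chromosome, the LINC RNAs of chromosomes 13 and 14 leaned to MIA-PaCa2. Of 13 on chromosome 13, 1 was called higher and 7 lower in PANC-1, with a median log2 difference of -0.78, against 0.11 for the 222 other tested genes of that chromosome. Over all genes tested, 40.6% were called higher and 33.8% lower. Calls of the other genes were not counted by chromosome. The 1 that was higher was LINC00397, and the lower ones included LINC00457, LINC00458, LINC00371 and LINC00428, with MIA-PaCa2 means of 2.83 to 8.41 TPM and PANC-1 means of 0 to 0.247 TPM. These lower ones reached 2 TPM in MIA-PaCa2 only, so their direction partly follows from the choice. Of 9 on chromosome 14, none was called higher and 5 were called lower, with a median of -0.77, against 0.03 for the 464 other genes. These chromosomes were singled out after their values were seen. Chromosomes 16 and 22 each had 3 of 5 LINC RNAs called lower and none higher. On chromosome 19, 5 of 11 were called higher and 1 lower.

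The second question was whether either introduced protein went with a different level of a LINC RNA. Over both lines, with the line as a term, limma called none of the 183 for ESRP1 (background 0.007%, 1 of 14284 genes) and none for ESRP2 (background 0.014%, 2 genes). At an unadjusted p under 0.05 there were 10 LINC RNAs (5.46%) for ESRP1, against 6.37% of all genes, and 8 (4.37%) for ESRP2, against 12.3%. The lowest adjusted p of a LINC RNA was 0.724 for ESRP1 and 0.371 for ESRP2. In a self-test the model recovered 34% of 2-fold changes for ESRP1 and 48% for ESRP2. A LINC RNA that was not called is therefore not shown to be unchanged.

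The signs nevertheless differed from those of other genes. For ESRP1, 63 of 183 LINC RNAs (34.4%) had a positive log2 difference, against 64.5% of all genes, with medians of -0.09 and 0.05. The ESRP1 median of the LINC RNAs was -0.02 without PANC-1 LPCX and -0.03 without MIA-PaCa2 ESRP1, and -0.13 without MIA-PaCa2 LPCX. For ESRP2, 86 (47.0%) were positive, against 63.3%, with medians of -0.02 and 0.06. The ESRP2 median of the LINC RNAs turned to 0.04 without PANC-1 ESRP2 and to 0.05 without PANC-1 LPCX, and was -0.10 without MIA-PaCa2 ESRP2 and -0.06 without MIA-PaCa2 LPCX. Under median ratio scaling, 29.5% of LINC RNAs were positive for ESRP1, against 51.9% of all genes, with a LINC median of -0.13, and 41.0% were positive for ESRP2, against 51.1%, with a LINC median of -0.06. Within a line, over genes with 2 TPM in either library, the median log2 ratio of LINC RNAs was -0.11 in PANC-1 ESRP1, -0.16 in PANC-1 ESRP2, -0.08 in MIA-PaCa2 ESRP1 and 0.09 in MIA-PaCa2 ESRP2, each against LPCX. Symbols with a coding transcript had medians of 0.09, 0.10, 0.04 and 0.05 in the same order, and other symbols without one had -0.13, -0.19, -0.11 and 0.06. In 3 of the 4 comparisons the LINC RNAs thus stood slightly below LPCX together with other noncoding symbols, and in MIA-PaCa2 ESRP2 slightly above it. Both comparisons of a line share its LPCX library.

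The microRNA entries MIR4461 and MIR6723 moved along with this. Their share of all TPM was 4.66% (ESRP1) and 5.20% (ESRP2) in PANC-1, against 7.002% in PANC-1 LPCX, and 4.60% (ESRP1) and 6.28% (ESRP2) in MIA-PaCa2, against 5.60% in MIA-PaCa2 LPCX. With both entries removed and TPM rescaled, the LINC medians were -0.15, -0.18, -0.10 and 0.10. Among LINC RNAs with at least 5 TPM in either library, the medians were nearer to 0 for ESRP1, -0.04 for 55 in PANC-1 and -0.01 for 67 in MIA-PaCa2, and -0.14 for 55 in PANC-1 ESRP2 and 0.06 for 69 in MIA-PaCa2 ESRP2.

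Ratios of 2-fold or more, with a pseudocount of 1 TPM, were few. In PANC-1 ESRP1, 1 of 120 LINC RNAs was higher and 2 were lower (backgrounds 0.822% and 1.7%). These were LINC00904, with 2.26 TPM in PANC-1 ESRP1 and 0.307 TPM in PANC-1 LPCX, LINC02079, with 3.20 and 8.07 TPM, and LINC01468, with 0.615 and 2.23 TPM. In PANC-1 ESRP2, 2 of 125 were higher and 5 lower (backgrounds 0.815% and 2.23%). LINC01372 had 2.16 TPM in PANC-1 ESRP2 and 0.281 TPM in PANC-1 LPCX, and LINC01291 had 2.70 TPM with LPCX listed at 0. LINC01291 reached 2 TPM only in PANC-1 ESRP2, the library that admitted it, so its ratio partly follows from the choice. The lower ones were LINC01843, with 3.90 TPM in PANC-1 ESRP2 and 10.9 TPM in PANC-1 LPCX, LINC01090, with 0.545 and 3.37 TPM, and LINC01468, LINC00112 and LINC00618, which had at most 3.87 TPM in PANC-1 LPCX. LINC01090 reached 2 TPM only in PANC-1 LPCX, the library that admitted it.

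In MIA-PaCa2 ESRP1, none of 127 LINC RNAs was higher by 2-fold and 3 were lower (backgrounds 1.09% and 1.27%). LINC02211, LINC01399 and LINC01730 had 0, 0.191 and 0.470 TPM there, against 2.07, 2.34 and 2.61 TPM in MIA-PaCa2 LPCX. MIA-PaCa2 LPCX was the only library in which these genes reached 2 TPM. It alone admitted them, so their lower values elsewhere partly follow from the choice. In MIA-PaCa2 ESRP2, 3 of 142 were higher and 4 lower (backgrounds 1.64% and 1.31%). LINC02079, a short transcript, had 19.9 TPM in MIA-PaCa2 ESRP2 and 6.84 TPM in MIA-PaCa2 LPCX, LINC00440 had 2.31 and 0.580 TPM, and LINC00448 had 4.06 TPM with LPCX listed at 0. LINC00440 and LINC00448 reached 2 TPM only in MIA-PaCa2 ESRP2, the library that admitted them. LINC00457 had 3.28 TPM in MIA-PaCa2 ESRP2 and 10.1 TPM in MIA-PaCa2 LPCX, and LINC00904, LINC01399 and LINC02211 had at most 0.427 TPM with ESRP2 and 2.07 to 2.60 TPM with LPCX. LINC02079 went the other way in PANC-1, with 3.20 and 5.52 TPM in PANC-1 ESRP1 and PANC-1 ESRP2, against 8.07 TPM in PANC-1 LPCX.

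**Figure D4:**
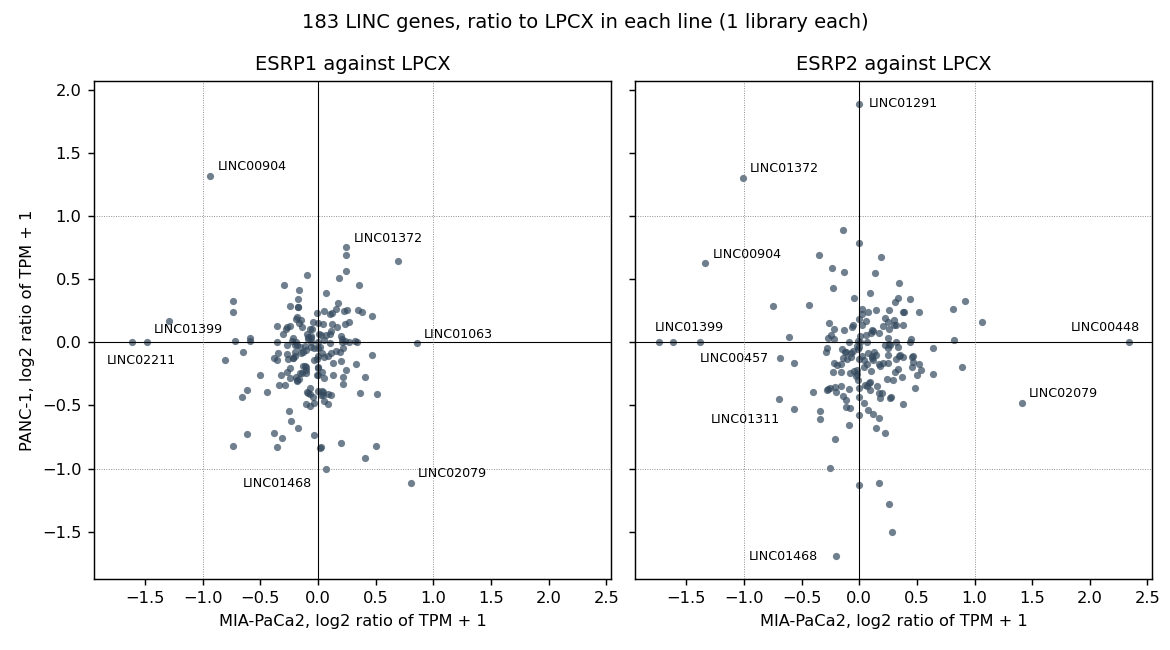
Log2 ratio of TPM plus 1 to LPCX in PANC-1 (vertical axis) and MIA-PaCa2 (horizontal axis) for 183 LINC RNAs, for ESRP1 and ESRP2; each point is a gene with 1 library a group, and dotted lines mark 2-fold. Nearly all points lie within 2-fold, and those outside in 1 line are near 0 or on the other side in the other line.

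Of the 91 LINC RNAs with 2 TPM in both lines, 14 were higher with ESRP1 in both lines, 37 were lower in both and 40 went opposite ways, which is 15.4%, 40.7% and 44.0%. Over 11766 genes the same shares were 44.3%, 17.0% and 38.4%. For ESRP2 the counts were 19, 24 and 48, or 20.9%, 26.4% and 52.7%, against 43.2%, 17.3% and 39.2% of all genes. Ranked among these 91 by the smaller ratio of the lines, LINC01311 was among the 5 lowest for both proteins. It had 2.21 and 1.82 TPM in PANC-1 ESRP1 and PANC-1 ESRP2, against 3.05 TPM in PANC-1 LPCX, and 3.40 and 2.76 TPM in MIA-PaCa2 ESRP1 and MIA-PaCa2 ESRP2, against 4.57 TPM in MIA-PaCa2 LPCX. All 4 ESRP libraries were below the LPCX library of their line, with log2 differences of -0.34 for ESRP1 (SE 0.15, limma adjusted p = 0.724) and -0.55 for ESRP2 (SE 0.15, limma adjusted p = 0.371). LINC01637 (-0.42, SE 0.13) was the lowest for ESRP1 by the smaller ratio of the lines, followed by LINC00483, LINC01311, LINC00969 and LINC00342.

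Among the same 91, LINC00630 was among the 5 highest for both proteins. It had 12.9 and 12.8 TPM in PANC-1 ESRP1 and PANC-1 ESRP2, against 10.7 TPM in PANC-1 LPCX, and 7.92 and 8.94 TPM in MIA-PaCa2 ESRP1 and MIA-PaCa2 ESRP2, against 6.63 TPM in MIA-PaCa2 LPCX. The 4 ESRP libraries were above LPCX, with log2 differences of 0.24 (SE 0.10, limma adjusted p = 0.724) for ESRP1 and 0.31 (SE 0.10, limma adjusted p = 0.371) for ESRP2. LINC01232, LINC01372, LINC00467 and LINC01012 were the others highest for ESRP1, and LINC01963, LINC01873, LINC01503 and LINC01534 for ESRP2. LINC01775, LINC00116, LINC01560 and LINC01089 were, with LINC01311, the lowest for ESRP2. None of these was called by limma for either protein.

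Since both proteins bind RNA and act on splicing, the transcripts of a LINC gene were compared as shares of its TPM. Only 49 of the 183 have 2 or more transcripts in the table, and 21 of those, with 53 transcripts, had at least 2 TPM in every library. Limma on the log2 odds of a share called none of the 53 for ESRP1 or ESRP2 (background 0%, none of 14940 transcripts). An unadjusted p under 0.05 was reached by 3 of the 53 for each protein, against 813 (ESRP1) and 948 (ESRP2) of the 14940. The share among LINC transcripts was thus near that of all transcripts. With each protein, the shares of both transcripts of 1 LINC gene, LINC01534, moved alike in the 2 lines by 10 percentage points or more. That is 2 of 53, or 3.77%, against 2.38% of all transcripts for ESRP1, 3.11% for ESRP2 and 0.797% in all 4 comparisons. These 2 transcripts mirror each other, so this is 1 difference in 1 gene. By gene it is 1 of 21, against 235 of 6758 genes for ESRP1, 319 for ESRP2 and 80 in all 4 comparisons.

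LINC01534, now ZNF567-DT, has 2 transcripts. NR_110707, of 815 bases and 3 exons, keeps an intron of 325 bases at chr19:36685512-36685836 (GRCh38, GENCODE 29, minus strand) that NR_110708, of 554 bases and 4 exons, lacks; the transcripts also differ at their ends. The splice sites of this intron are shown because keeping this intron is 1 of the differences between the transcripts. Each line holds 20 exon and 40 intron bases, from chr19:36685797-36685856 and chr19:36685492-36685551, with the first or last 2 intron bases in capitals.
5′ splice site of LINC01534: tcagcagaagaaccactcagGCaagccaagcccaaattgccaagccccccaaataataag
3′ splice site of LINC01534: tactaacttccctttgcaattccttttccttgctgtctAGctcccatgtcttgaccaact
The intron begins with GC, the less common form of a 5′ splice site, and ends with AG. NR_110707 made up 35.4% (ESRP1) and 70.3% (ESRP2) of LINC01534 in PANC-1, against 12.5% in PANC-1 LPCX, and 65.8% (ESRP1) and 42.3% (ESRP2) in MIA-PaCa2, against 26.0% in MIA-PaCa2 LPCX. All 4 ESRP libraries were above both LPCX libraries, but the size varied between lines, and the log2 odds of 1.51 (SE 0.70, limma adjusted p = 0.917) and 1.83 (SE 0.70, limma adjusted p = 0.782) were not called. The gene itself was at 4.97, 4.37 and 3.55 TPM in PANC-1 and 3.23, 4.78 and 3.04 TPM in MIA-PaCa2, so the shares rest on low levels. It overlaps the gene ZNF567 on the opposite strand in RefSeq, and reads of the 2 could be mixed where the counting did not use strand.

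**Figure D5:**
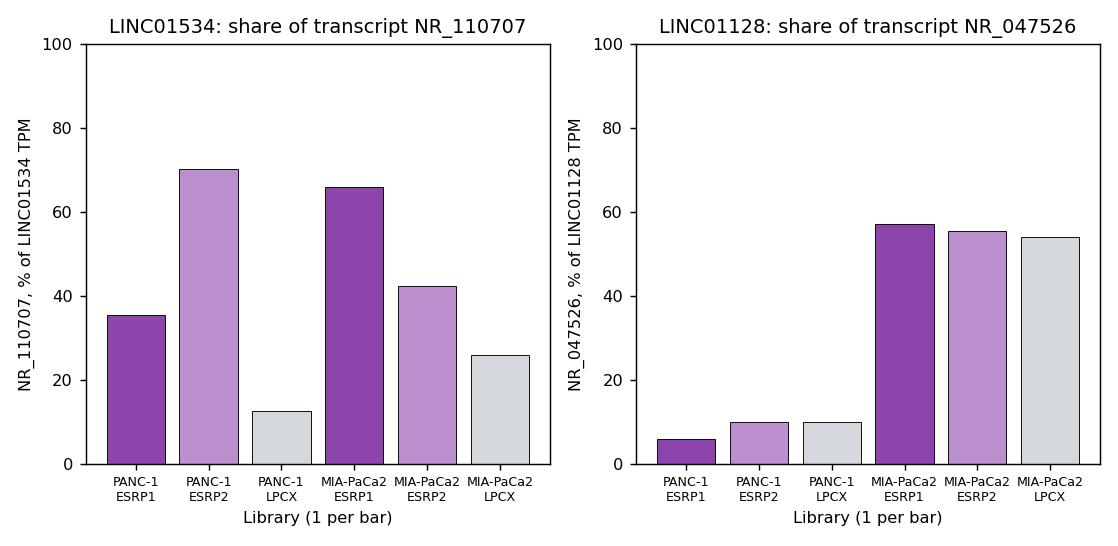
Share of 1 transcript in the TPM of its gene (vertical axis, percent) in each of the 6 libraries, 1 library per bar with no error bar. NR_110707 of LINC01534 is at 35.4% to 70.3% in the 4 ESRP libraries and at 12.5% and 26.0% in the LPCX libraries, and NR_047526 of LINC01128 is at or under 9.83% in PANC-1 and at least 54.0% in MIA-PaCa2.

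LINC01123 moved less but alike in all 4 comparisons, and is named here after its values were seen. Its transcript NR_046111 made up 73.8% (ESRP1) and 76.7% (ESRP2) in PANC-1, against 65.0% in PANC-1 LPCX, and 76.0% (ESRP1) and 74.6% (ESRP2) in MIA-PaCa2, against 66.7% in MIA-PaCa2 LPCX. The log2 odds were 0.59 (SE 0.23, limma adjusted p = 0.907) for ESRP1 and 0.65 (SE 0.23, limma adjusted p = 0.774) for ESRP2. The total of LINC01123 was 41.1, 37.3 and 42.9 TPM in PANC-1 and 17.2, 19.1 and 18.6 TPM in MIA-PaCa2.

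Differences in share between the lines were wider. All libraries of 1 line lay at least 10 points from all of the other for 8 of the 53 transcripts (15.1%), against 7.83% of all transcripts, in LINC00476, LINC00680, LINC01128 and LINC01588. When 1 transcript of a gene gains share the others lose it, so these 8 are not independent. Such differences were not counted by gene. NR_047526 of LINC01128 made up 5.93%, 9.83% and 9.81% in PANC-1 with ESRP1, ESRP2 and LPCX, against 57.0%, 55.5% and 54.0% in MIA-PaCa2. NR_023390 of LINC00476 made up 2.93%, 5.15% and 4.18% in PANC-1, against 22.7%, 21.8% and 21.1% in MIA-PaCa2. In both, the 3 libraries of a line lay close together whichever construct was carried.

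For context, long noncoding RNAs under other names were counted from a list of 59 symbols, of which 44 were tested. Of these 19 were called higher and 16 lower in PANC-1, with a median log2 difference of -0.01, against 0.07 for all genes tested. For this list and those below, the background of calls was 40.6% higher and 33.8% lower over all genes tested. Their medians were -0.07 with ESRP1 and -0.17 with ESRP2, below those of all genes as for the LINC RNAs. Of 28 genes of nuclear RNA turnover, which degrades many noncoding RNAs, 5 were called higher and 15 lower in PANC-1 (median -0.21). Of 16 genes of the Polycomb complex PRC2 and chromatin partners 5 were called higher and 10 lower (median -0.51), and of 7 PUMILIO genes and partners, bound by the noncoding RNA NORAD, 1 was called higher and 5 lower (median -0.66).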

How the data were processed

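Polyadenylated RNA was sequenced in 6 libraries, 1 for each line and construct. Per the labels, libraries were made with a TruSeq mRNA kit from 2 ug of total RNA, and transcripts were quantified by Salmon on GRCh38 (hg38), per the submitters' processing notes. The sources used here give neither a version nor the annotation. A single table of abundance signal in TPM for RefSeq transcripts was deposited by the authors. Of its 67792 lines, 8664 repeat another and were dropped, which left 59128 transcripts, and TPM were summed by symbol. TPM keep no depth, so no counting intervals are given. The headers of 2 columns are misspelt (one names ESRP12, one MIA-PaCo2) and were assigned by elimination. No other columns of values were present.

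Genes with at least 2 TPM in 1 or more libraries, 14284 in all, were tested with limma 3.58.1 (R 4.3.3, trend) on log2 of TPM plus 1, with line and construct as terms, 2 residual degrees of freedom and Benjamini-Hochberg adjustment at 0.05 over all genes of a contrast, two-sided. The line is the block of the construct contrasts. Libraries of a line differ in construct, and p-values measure the spread between these libraries. Within a line, log2 ratios had no test and were counted from 2-fold. Transcript shares were tested as log2 odds with 0.5 TPM added. The model was checked by a self-test in which 200 of 14284 genes were given a known change. Of 2-fold changes it recovered 56.5% between the lines, 34% for ESRP1 and 48% for ESRP2. Of 4-fold changes it recovered 87.5%, 82.5% and 80% in the same order.

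Coordinates, biotypes, neighbours and promoter windows are from RefSeq GRCh38.p14 (178 LINC genes matched by accession and 5 by an older symbol), and exons from GENCODE 29. Described genes are the 12 with the highest mean, the 10 largest called differences per direction between lines, for each construct the 5 highest and 5 lowest with the same sign in both lines and 2 TPM in each line, the 3 highest and 3 lowest ratios per comparison, and 12 of known interest. The genes and lists were chosen with earlier results of these data known. Alternatives covered the pseudocount, the filter, scaling, 2 abundant microRNA entries, the block and leaving out each library.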

Additional observations from a re-analysis of the deposited data

Results flagged for a closer look

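LINC01372 had opposite ratios with ESRP2 in the 2 lines. Its level was 2.16 TPM in PANC-1 ESRP2 and 0.281 TPM in PANC-1 LPCX, a log2 ratio of 1.30, and 0.373 TPM in MIA-PaCa2 ESRP2 and 1.77 TPM in MIA-PaCa2 LPCX, a log2 ratio of -1.01. It was marked because the ratios of the lines had opposite signs and were each 2-fold or more, with 1 library a group, and the difference between the lines was not tested. Both MIA-PaCa2 values are under 2 TPM, so it is not among the LINC RNAs counted at 2-fold in that comparison.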

How the results depend on the processing

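The 118 LINC RNAs called between the lines became 66 of the 79 tested with a filter of 5 TPM in 2 libraries. Of 11829 genes tested there, 5102 were called higher and 4217 lower in PANC-1. With no filter, 52 of the 183 LINC RNAs were called higher and 57 lower, against 6487 and 5321 of 22710 genes. The called share of LINC RNAs was thus below that of all genes in the main setting but above it with these 2 changes of filter. When 1 library was left out, 101 to 107 LINC RNAs and 9033 to 9868 of all genes were called. Without the replicate block (no construct term) 119 were called. The 20 LINC RNAs with the largest differences between the lines kept their direction and their side of the threshold under each alternative in which they were tested. With 31 overlapping or multi-copy LINC genes left out, an alternative chosen after seeing the data, 95 of 152 were called (62.5%). For the constructs the count of LINC RNAs called was 0 under every alternative. Over all genes, ESRP1 had 0 to 1 calls and ESRP2 0 to 1 calls when 1 library was left out, and the 2 ESRP2 calls became 1 with a pseudocount of 0.5, and 0 with a pseudocount of 0.1, no filter, median ratio scaling, the 2 microRNA entries removed, or no replicate block. Transcript calls of LINC genes were 0 throughout. The ESRP1 difference of LINC01372 was 0.50, turned to -0.21 without PANC-1 LPCX and was 1.21 without MIA-PaCa2 LPCX; the cause was not tested.

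The LINC RNAs at 2-fold in PANC-1 ESRP1 were 3, and 6 with a pseudocount of 0.5, 11 with 0.1 and 1 with a filter of 5 TPM. For PANC-1 ESRP2 the filter of 5 TPM left 1, for MIA-PaCa2 ESRP1 it left 0 and a pseudocount of 0.1 gave 7, and for MIA-PaCa2 ESRP2 the filter left 2. A threshold of 1 TPM would take 286 LINC symbols and one of 5 TPM would take 92. Sparse RNAs limit what these libraries can show, since the reads behind a TPM are unknown.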
